A study of Mus musculus with 20 samples.

Results

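Binding sites of p65 and SOCS1 were followed around 6 genes of the IL-6 family and the IL-10 system: the cytokine genes Il6, Lif, Osm and Il10 and the receptor genes Il6st and Il10ra. A site was kept where the centre of a called peak lay within 20 kb of the gene's span in the mm10 build, and peaks of different libraries that overlapped were joined into 1 site. This gave 190 peaks in 57 sites, of 258959 peaks in 96700 regions over all 12 peak lists, and 6 of 21887 protein-coding genes. The rule uses gene names and peak positions and no level of binding.

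The cells were mouse bone marrow-derived macrophages grown with M-CSF, either KO or wild type (WT, C65BL6). The gene disrupted in the KO is given as NOS1 in the design text, although SOCS1 is the subject of the title, and it cannot be read from peak positions. Cells of both genotypes were left as control or given LPS, a bacterial cell wall product, at 100 ng/mL for 30 min or 8 h. CUT&RUN, in which an antibody directs a nuclease to cut out the chromatin around its target, was done on briefly fixed cells with antibodies against p65 or SOCS1 or with control IgG, and 1 library was available for each antibody, genotype and treatment. No difference between groups could therefore be tested against replicates. Intervals of signals and of their ratios are 95% intervals for counting error only. Those of shares of sites are 95% binomial intervals that take sites as independent, which sites of 1 gene are not.

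IL-6, LIF and oncostatin M signal through receptors that share gp130, the product of Il6st, which activates JAK kinases and STAT3. IL-10 signals through IL-10RA and IL-10RB, also to STAT3, and restrains the macrophage response to LPS. The p65 protein (RELA) is the NF-κB subunit that enters the nucleus after TLR4 senses LPS, and Il6 is one of its textbook targets. SOCS1 is a feedback inhibitor of cytokine signalling.

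Il6 and Il6st are shown with the 250 bases before their annotated start (RefSeq, GRCm38.p6, plus strand), since the site at the Il6 start was called only after LPS and that at the Il6st start also before it. Promoters were matched for 3 of the 6 members (Il6, Il6st and Lif). Capitals mark a match to the kB motif, the sequence that NF-κB dimers recognise. The Il6 stretch lies at chr5:30012864-30013113 and the Il6st stretch at chr13:112463820-112464069.

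Il6: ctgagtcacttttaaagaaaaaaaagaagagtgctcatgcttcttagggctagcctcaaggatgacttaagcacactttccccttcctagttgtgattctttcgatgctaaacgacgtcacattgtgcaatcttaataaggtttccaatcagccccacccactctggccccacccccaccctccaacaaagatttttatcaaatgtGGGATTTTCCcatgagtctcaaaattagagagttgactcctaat

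Il6st: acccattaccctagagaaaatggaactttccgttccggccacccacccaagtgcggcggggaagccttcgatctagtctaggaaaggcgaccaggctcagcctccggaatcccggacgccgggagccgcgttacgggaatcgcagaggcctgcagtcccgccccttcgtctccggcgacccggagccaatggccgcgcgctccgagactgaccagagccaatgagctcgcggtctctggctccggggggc

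The match in Il6, GGGATTTTCC at chr5:30013070-30013079, begins 44 bases before the start and satisfies both the kB motif GGANTTTCC and the longer kB consensus, which overlap there. Of 21263 promoters of the same 300-base window (250 bases before to 50 after the start), 1.3% hold GGANTTTCC and 4.8% hold the kB consensus on either strand. The Il6 window also holds TGANTCA, the AP-1 motif (7.0% of promoters), and TTGCNNAA, the C/EBP motif (10.2% of promoters). The Lif window holds the AP-1 motif alone of those searched. None of these motifs, nor the STAT motif TTCNNNGAA (7.7% of promoters) nor the ISRE motif GAAANNGAA (8.1% of promoters), was found in the Il6st window. These matches describe letters and are not evidence of binding. The Il6st stretch was 66.0% G and C and the Il6 stretch 42.8%.

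Peaks lay near nearly all of the 6 genes, and Il6 was the gene most often without one before LPS. In p65 lists of KO cells, a peak was called within 20 kb of 4 members in control cells, 6 after 30 min and 5 after 8 h, where 42.7%, 70.2% and 62.4% of all genes had one. In p65 lists of WT cells it was 5, 6 and 6 members, against 39.7%, 67.3% and 62.0% of all genes. In SOCS1 lists of KO cells, 6, 6 and 5 members had a peak in control, 30 min and 8 h cells, against 62.5%, 57.5% and 51.1% of all genes. In SOCS1 lists of WT cells, 5, 6 and 6 members did, against 38.9%, 54.4% and 45.2% of all genes. With so many genes near a peak, the presence of one sets these 6 genes little apart, and what differs between them is which library lacks it.

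Il6 was the one member with no p65 peak in control cells of either genotype, and it gained one at 30 min and at 8 h in both. Lif also gained p65 peaks in KO cells, where its control list had none. The share of all genes without a p65 control peak that gained one at 30 min was 50.9% in KO and 48.8% in WT cells. The share that gained one at 8 h was 41.7% in KO and 41.5% in WT cells. Il6 likewise gained a SOCS1 peak in WT cells at 30 min (33.6% of genes without a control peak did) and at 8 h (23.9%). Other absences were seen in 1 genotype. Il6 had a SOCS1 peak in KO control cells and none in WT control cells, as 43.8% of genes without a WT peak did. Lif lacked a p65 peak in KO control cells and had one in WT control cells, as 20.1% of genes without a KO peak did. That WT peak lies inside Osm, 17.1 kb below Lif, and counts for both genes. Its score, the authors' count of at most 1 tag per bp, equalled the lowest of its list, so it sets Lif little apart between genotypes. Il6st had no peak of either antibody at 8 h in KO cells but 2 p65 peaks and 1 SOCS1 peak in WT cells; among all genes without a KO peak at 8 h, 13.2% had a WT peak for p65 and 11.2% for SOCS1.

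**Figure D1:**
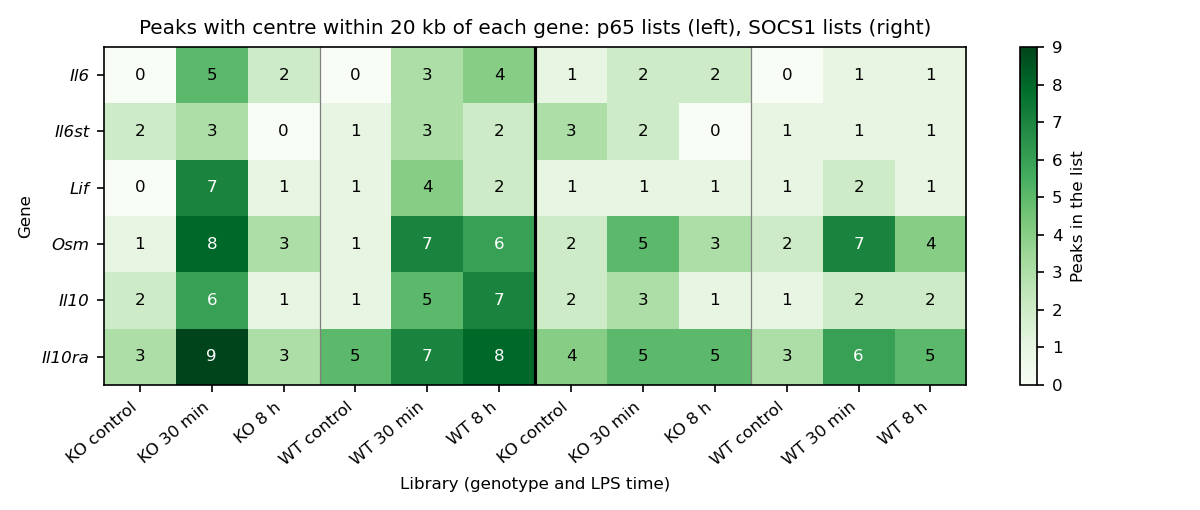
Number of called peaks with a centre within 20 kb of each gene (rows) in each of the 12 libraries (columns; p65 on the left, SOCS1 on the right, KO before WT, control to 8 h). Il6 has no p65 peak in either control library, Il6st has no peak at 8 h in KO cells, and Il10ra has between 3 and 9 peaks in every library.

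Peaks were not spread evenly over the genes. Il10ra had 63 peaks in 13 sites and Osm 49 in 12 sites, while Il10 had 33 in 13 sites, Lif 22 in 10, Il6 21 in 7 and Il6st 19 in 7. Lif and Osm are neighbours on chromosome 11, and 5 of the sites, with 17 peaks, fall within 20 kb of both and count for each. Of the 57 sites, 21 were called in 1 list only (36.8%, against 51.9% of all regions) and 4 in at least 10 lists (7.0%, against 2.27% of all regions). Peaks of both antibodies fell in 27 sites, of p65 alone in 23 and of SOCS1 alone in 7. This split was not counted over all regions, so it does not set these sites apart.

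**Figure D2:**
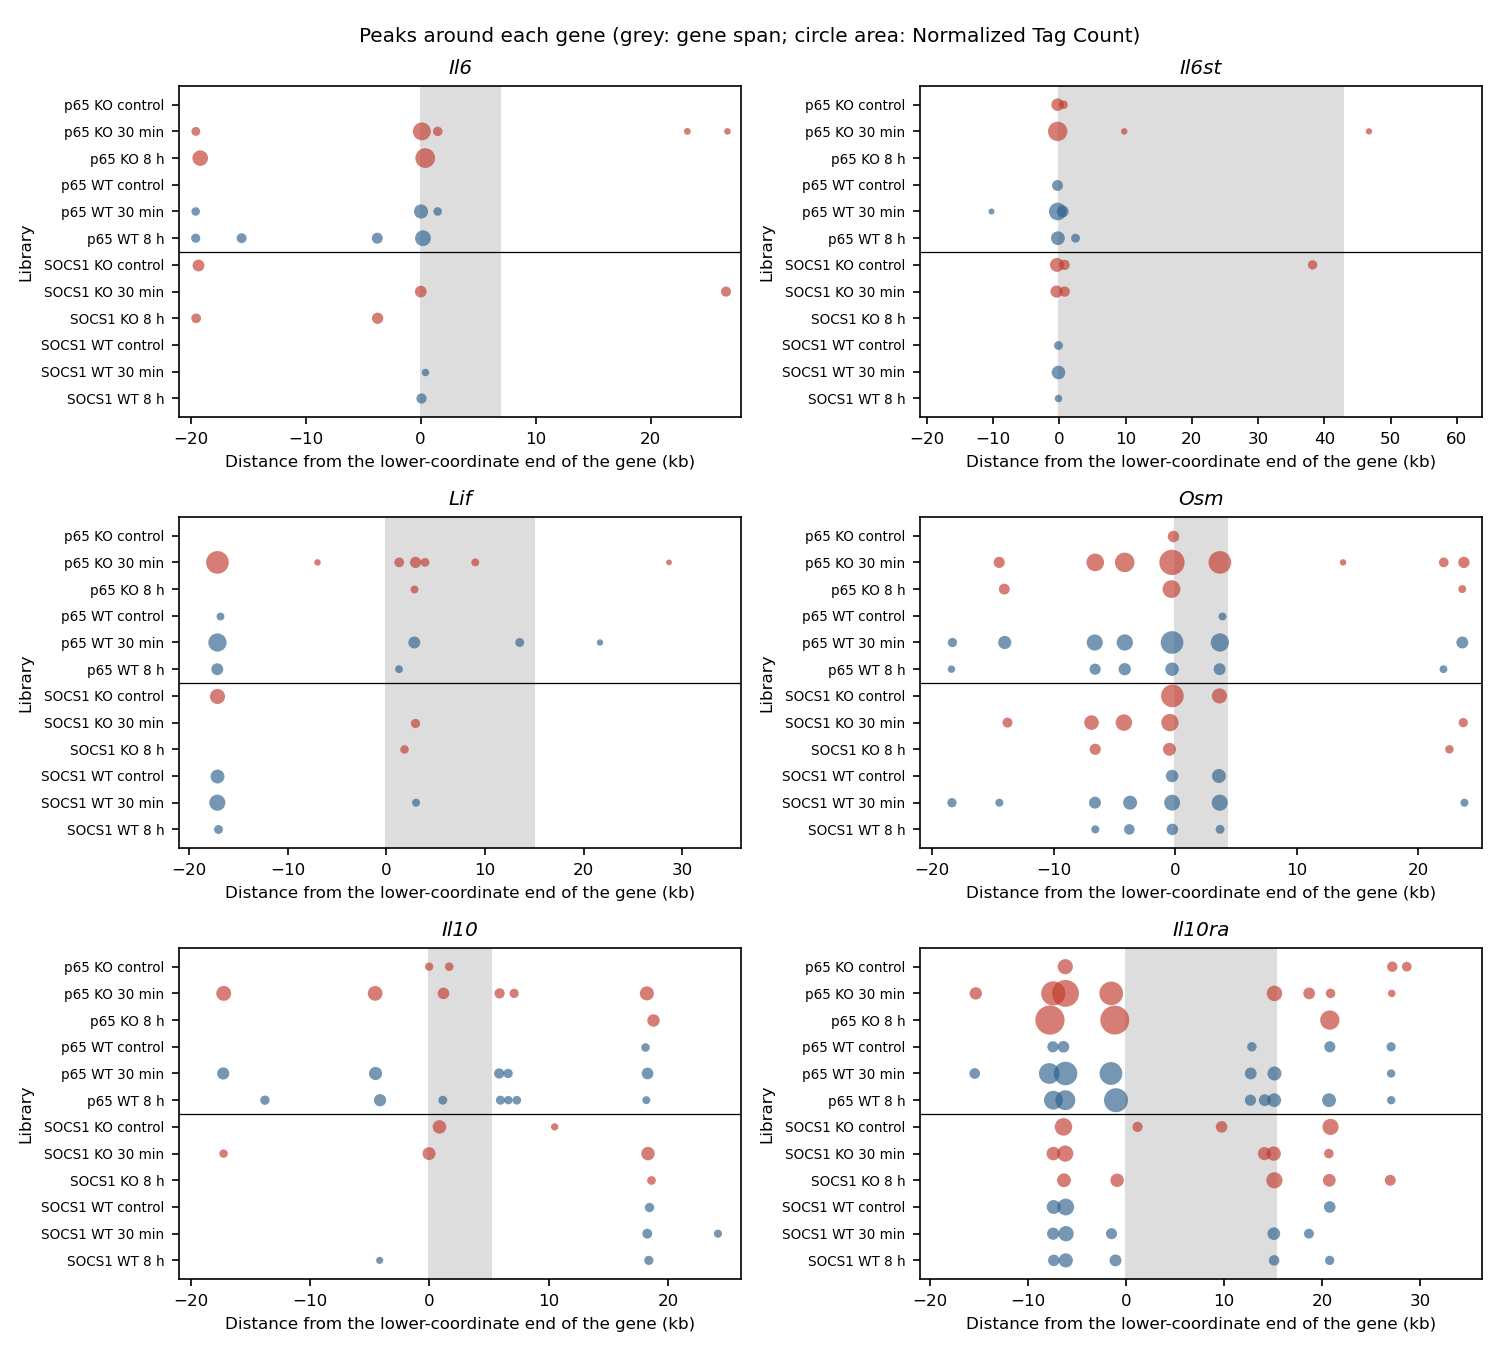
Peaks around each gene, by library (rows; KO red, WT blue, p65 above the line and SOCS1 below) against distance in kb from the gene's lower-coordinate end; grey marks the gene span, and circle area is the Normalized Tag Count of the highest peak of a site in that library. Osm and Il10ra show columns of circles across nearly all libraries, while 7 of the 10 Lif sites and 5 of the 7 Il6st sites stand in 1 library alone, as do 4 of the 13 Il10 sites.

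Signal is given as the Normalized Tag Count, the authors' tag number of the peak per 10000000 tags of the library, with the interval of the tags behind it. Absence of a site from a list does not mean that nothing bound there, since a peak had to pass thresholds over IgG and over its surroundings. The libraries held 6929718 to 18433869 tags, with the deepest for p65 in KO cells at 30 min, and peaks were 222 to 493 bp wide with the widest for p65 in KO cells at 8 h. In the p65 and SOCS1 lists of KO control cells, 91.4% and 88.0% of peaks had the lowest IgG value possible, against 14.7% to 43.0% in the other lists, and what this low IgG did to the calls of the KO control lists was not tested. Tags that repeat the same position count in this measure; the authors' score, which counts at most 1 tag per bp, was 40.6% of the tags in SOCS1 peaks of KO control cells and 51.5% to 81.8% in the other lists. Peaks lay near 8 or 9 of 9 macrophage marker genes in every list, where 38.9% to 70.2% of all genes had one. Markers of other cells also lay near peaks, with 3 or 4 of 4 dendritic cell, 1 to 4 of 4 B cell, 1 to 4 of 5 T cell and 0 to 6 of 6 neutrophil genes in the lists, so these positions do not identify the cells.

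Il6 encodes interleukin-6, an early pro-inflammatory cytokine. Its main site lies across the annotated start (chr5:30012929-30013761) and was called in 7 lists, none of them from control cells. For p65 in KO cells the Normalized Tag Count there was 74.3 (62.4 to 87.9) at 30 min and 89.6 (72.7 to 109.1) at 8 h. For p65 in WT cells it was 46.2 (35.4 to 59.2) at 30 min and 57.6 (44.1 to 74.0) at 8 h. Both KO values were above both WT values, and the intervals of 30 min and 8 h overlapped in each genotype. The KO log2 ratio of 8 h to 30 min, 0.27, became -0.88 per bp of peak width and -0.02 after centring on the median of all sites. The ratio of KO to WT was 1.61 (1.18 to 2.21) at 30 min and 1.56 (1.12 to 2.18) at 8 h. The KO to WT log2 ratio at 8 h, 0.64, became -0.41 per bp of peak width and -0.08 after centring, so the directions of both depend on the scaling.

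SOCS1 at the Il6 start had a Normalized Tag Count of 31.8 (21.3 to 45.7) in KO cells at 30 min, and at 8 h the nearest KO peak, of 29.6, lay 3.9 kb away. The WT signal was 12.8 (6.7 to 22.2) at 30 min and 24.2 (15.3 to 36.3) at 8 h. The 30 min values are low in tags, at 29.0 in KO cells and 12.5 in WT cells, and the WT peak at 30 min overlaps neither the KO peak at 30 min nor the WT peak at 8 h. The peaks of this site did not all cover the kB match shown above. Those of p65 in WT cells at 30 min, SOCS1 in KO cells at 30 min and SOCS1 in WT cells at 8 h did, and the other 4 did not. Of these, the p65 peak of KO cells at 30 min was centred 109 bp beyond the start, and the p65 peaks of both genotypes at 8 h and the SOCS1 peak of WT cells at 30 min lay wholly inside the gene.

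Another Il6 site, 19.5 kb below the gene, was called for p65 in all 4 LPS libraries. The p65 value was 18.2 (12.5 to 25.5) at 30 min and 55.9 (42.8 to 71.8) at 8 h in KO cells. In WT cells it was 16.9 (10.6 to 25.5) at 30 min and 19.4 (11.9 to 29.7) at 8 h. The KO value at 8 h stood apart from the other 3, with a ratio of 2.88 (1.73 to 5.02) to WT at 8 h. That KO peak, 493 bp wide, overlaps neither the WT peak at 8 h nor the KO peak at 30 min, so the ratio compares neighbouring positions, and its log2 value of 1.53 was 0.48 per bp of peak width. SOCS1 was called there in KO cells only, with 32.3 in control cells and 21.9 at 8 h; the control peak is the Il6 peak that WT control cells lack, and its score was 8.5.

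Lif encodes leukaemia inhibitory factor. The highest peak in its window lies inside Osm, 17.1 kb below Lif, and is described with Osm. Within Lif itself the site called most often, 2.9 kb from the lower end, was found in 5 lists, all after LPS. Its p65 value was 29.6 (22.2 to 38.5) in KO cells and 33.0 (24.0 to 44.3) in WT cells at 30 min, with intervals that overlap widely. It was 14.5 (8.3 to 23.6) in KO cells at 8 h. SOCS1 there was 19.8 (11.7 to 31.2) in KO cells and 14.9 (8.2 to 24.7) in WT cells at 30 min. No peak of any list overlapped the Lif start window in which the AP-1 motif was found.

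Osm encodes oncostatin M, a cytokine that activated macrophages secrete. Its most frequent site lies 0.3 kb below the lower-coordinate end of the gene (chr11:4236120-4236780) and was called in 11 lists, all but p65 in WT control cells. For p65 in KO cells it had 30.7 (20.2 to 44.7) in control, 147.6 (130.5 to 166.2) at 30 min and 73.2 (58.1 to 91.0) at 8 h. WT cells had 118.6 (100.8 to 138.6) at 30 min and 42.0 (30.6 to 56.3) at 8 h. The p65 signal was highest at 30 min in both genotypes, and the ratio of 8 h to 30 min was 0.50 (0.38 to 0.64) in KO cells and 0.35 (0.25 to 0.50) in WT cells. By the score, the KO log2 ratio of 8 h to 30 min was 0.02 and not -1.01.

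SOCS1 at the same Osm site followed a different order of treatments in KO and WT cells. In KO cells it was 118.6 (96.0 to 144.9) in control, 69.2 (53.2 to 88.5) at 30 min and 38.6 (26.0 to 55.1) at 8 h. In WT cells it was 36.1 (23.3 to 53.3) in control, 58.5 (44.3 to 75.8) at 30 min and 30.5 (20.4 to 43.8) at 8 h. The KO control value was the highest of the 6 and lay 3.29 times (2.10 to 5.33) above WT control. It came from 95.5 tags with a score of 24.0, against 25.0 tags with a score of 20.0 in WT control cells. Whether repeated tags account for the low score was not tested. By the score the KO signal was higher at 30 min and at 8 h than in control, with log2 ratios of 0.58 and 0.22.

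The site inside Osm, 3.7 kb from its lower end, was called in 8 lists. For p65 it had 118.5 (103.3 to 135.3) in KO cells at 30 min, and the KO lists of control and 8 h had no peak there. In WT cells p65 had 14.3 (7.1 to 25.6) in control, 76.9 (62.8 to 93.4) at 30 min and 32.6 (22.6 to 45.4) at 8 h. The WT control peak is the p65 peak counted for Lif in those cells, and its score equalled the lowest of its list. At 30 min KO was 1.54 times (1.21 to 1.97) WT. SOCS1 had 52.8 (38.1 to 71.2) in KO control cells and no KO peak after LPS. In WT cells SOCS1 had 44.7 (30.4 to 63.5) in control, 60.0 (45.6 to 77.5) at 30 min and 18.4 (10.8 to 29.3) at 8 h. In WT cells p65 and SOCS1 were thus both highest at 30 min and both lower at 8 h, with ratios of 8 h to 30 min of 0.42 (0.28 to 0.63) for p65 and 0.31 (0.17 to 0.53) for SOCS1.

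Further Osm sites, 6.6 and 4.2 kb below the gene, had no peak in any control list. The p65 value at 6.6 kb was 71.9 (60.2 to 85.2) in KO cells and 59.7 (47.3 to 74.3) in WT cells at 30 min. At 4.2 kb it was 87.9 (74.9 to 102.5) in KO cells and 61.2 (48.6 to 76.0) in WT cells at 30 min. In WT cells at 8 h the sites had 28.8 and 34.9, and no p65 peak was called at either in KO cells at 8 h. SOCS1 was called at 6.6 kb in all 4 LPS libraries, with 48.9 in KO cells and 32.8 in WT cells at 30 min, then 29.0 in KO cells and 15.2 in WT cells at 8 h.

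Il6st encodes gp130, the signalling chain shared by the IL-6 family. Its main site overlaps the promoter stretch shown above (chr13:112463468-112463993) and was called in 10 lists, all but both KO lists at 8 h. For p65 in KO cells it had 36.4 (24.9 to 51.4) in control and 86.8 (73.9 to 101.3) at 30 min. WT cells had 27.3 (16.9 to 41.7) in control, 71.3 (57.7 to 87.2) at 30 min and 43.9 (32.2 to 58.5) at 8 h. Unlike the Il6 start, this site was called for p65 before LPS in both genotypes, and its ratio of 30 min to control was 2.38 (1.62 to 3.60) in KO cells and 2.61 (1.62 to 4.41) in WT cells. After centring on the median of all sites, the log2 ratios of 1.25 in KO and 1.39 in WT cells became 0.34 and 0.50. Peaks of all 10 lists overlapped the 300-base window around the start, by 45 to 174 bp.

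SOCS1 at the Il6st promoter had 44.7 (31.3 to 61.9) in control and 34.6 (23.6 to 49.0) at 30 min in KO cells. In WT cells it had 18.0 (9.5 to 31.2) in control, 42.6 (30.6 to 57.7) at 30 min and 13.1 (6.9 to 22.7) at 8 h. The WT values are highest at 30 min, with a ratio to control of 2.37 (1.23 to 4.86), whereas the KO intervals of control and 30 min overlap. In KO cells at 8 h the nearest p65 peak lay 20.3 kb away and the nearest SOCS1 peak 24.9 kb away.

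Il10 encodes interleukin-10, the main anti-inflammatory cytokine of macrophages. Its most frequent site lies 13.2 kb above the upper-coordinate end (chr1:131037765-131038794), outside any gene of the table, and was called in 10 lists, all but both KO control lists. For p65 in KO cells it had 45.6 (36.3 to 56.4) at 30 min and 35.9 (25.6 to 49.0) at 8 h. WT cells had 16.9 (9.0 to 28.9) in control, 31.5 (22.7 to 42.6) at 30 min and 14.6 (8.3 to 24.0) at 8 h. At 8 h KO was 2.46 times (1.33 to 4.74) WT. The peaks behind this ratio lie beside each other without overlap, and its log2 value of 1.30 was 0.25 per bp of peak width. The SOCS1 values were 41.7 (29.5 to 57.3) at 30 min and 17.4 (9.4 to 29.4) at 8 h in KO cells, against 20.2, 22.6 and 19.5 in WT control, 30 min and 8 h cells. The WT SOCS1 values differed by less than their counting error.

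The highest p65 value near Il10 was 51.3 (41.5 to 62.7) in KO cells at 30 min, at a site 17.3 kb below the gene. In WT cells at 30 min this site had 34.2 (25.0 to 45.6), and the site 4.5 kb below the gene was higher. The site at 17.3 kb was called in no p65 list of control or 8 h cells. At 4.5 kb below the gene p65 was called at 30 min alone, with 50.2 in KO cells and 39.8 in WT cells, and in WT cells at 8 h a separate p65 peak of 34.5 lay 4.2 kb below the gene. The highest SOCS1 peak near Il10 lay inside the gene, with 42.2 (29.2 to 59.0) in KO control cells and a score of 15.5 for 34.0 tags. Of the 13 sites around Il10, the 12 other than that at 13.2 kb were each called in at most 3 lists.

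Il10ra encodes the ligand-binding chain of the IL-10 receptor and carried the highest p65 peaks of the 6 genes. The site called most often, 6.2 kb below the lower end and inside the neighbouring gene BC049352 (chr9:45247253-45247859), was called in 11 lists. For p65 in KO cells it had 52.9 (38.8 to 70.5) in control and 166.3 (148.2 to 186.0) at 30 min, and no peak at 8 h. In WT cells it had 31.2 (20.0 to 46.4) in control, 127.6 (109.1 to 148.3) at 30 min and 90.7 (73.4 to 110.7) at 8 h. The KO list at 8 h instead had a peak of 196.4 (171.1 to 224.4) in the next site, 1.5 kb away.

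SOCS1 at the site 6.2 kb below Il10ra varied less than p65. In KO cells it had 70.8 (53.6 to 91.7) in control, 60.4 (45.5 to 78.6) at 30 min and 43.8 (30.3 to 61.1) at 8 h. WT cells had 64.9 (47.4 to 86.9) in control, 53.9 (40.3 to 70.6) at 30 min and 46.3 (33.6 to 62.1) at 8 h. KO and WT intervals overlapped at each treatment, with a KO to WT ratio of 1.09 (0.72 to 1.65) in control cells. In WT cells the ratio of 30 min to control at this site was 4.09 (2.66 to 6.56) for p65 and 0.83 (0.55 to 1.26) for SOCS1. The peaks behind these ratios overlap by 94 bp for p65 and by 227 bp for SOCS1.

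The site 7.5 kb below Il10ra, also inside BC049352, had p65 values of 134.8 (118.6 to 152.7) at 30 min and 196.4 at 8 h in KO cells. WT cells there had 28.6 (17.9 to 43.3) in control, 99.1 (82.9 to 117.5) at 30 min and 82.2 (65.8 to 101.3) at 8 h. The peaks of this site are not centred on the same base in all lists, and those of KO and WT cells at 30 min do not overlap, so its values compare neighbouring positions. The KO to WT log2 ratio at 30 min was 0.44 and by the score -0.26. The site 1.2 kb below Il10ra had p65 peaks after LPS only, with 128.6 (112.7 to 146.0) at 30 min and 192.7 (167.7 to 220.5) at 8 h in KO cells. WT cells had 119.7 (101.9 to 139.8) at 30 min and 132.7 (111.6 to 156.5) at 8 h. Here the highest peaks at 30 min do not overlap those at 8 h in either genotype. The KO list at 30 min had another peak in this site, of 101.4. At 30 min KO and WT differed by less than counting error, with a ratio of 1.07 (0.87 to 1.32); at 8 h the ratio was 1.45 (1.17 to 1.81), and its log2 value of 0.54 became -0.51 per bp of peak width and -0.18 after centring. The KO log2 ratio of 8 h to 30 min was 0.54 at 7.5 kb and 0.58 at 1.2 kb, and per bp of peak width it was -0.61 and -0.57.

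At the upper end of Il10ra, 0.2 kb inside the gene, peaks of both antibodies were called after LPS only. The p65 value was 55.3 (45.1 to 67.2) in KO cells and 45.4 (34.7 to 58.4) in WT cells at 30 min, and 43.4 (31.8 to 57.9) in WT cells at 8 h. SOCS1 had 47.2 (34.2 to 63.6) at 30 min and 60.5 (44.4 to 80.4) at 8 h in KO cells. In WT cells SOCS1 had 36.9 (25.9 to 51.1) at 30 min and 25.8 (16.6 to 38.2) at 8 h. At 8 h SOCS1 in KO cells was 2.34 times (1.41 to 4.00) WT.

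**Figure D3:**
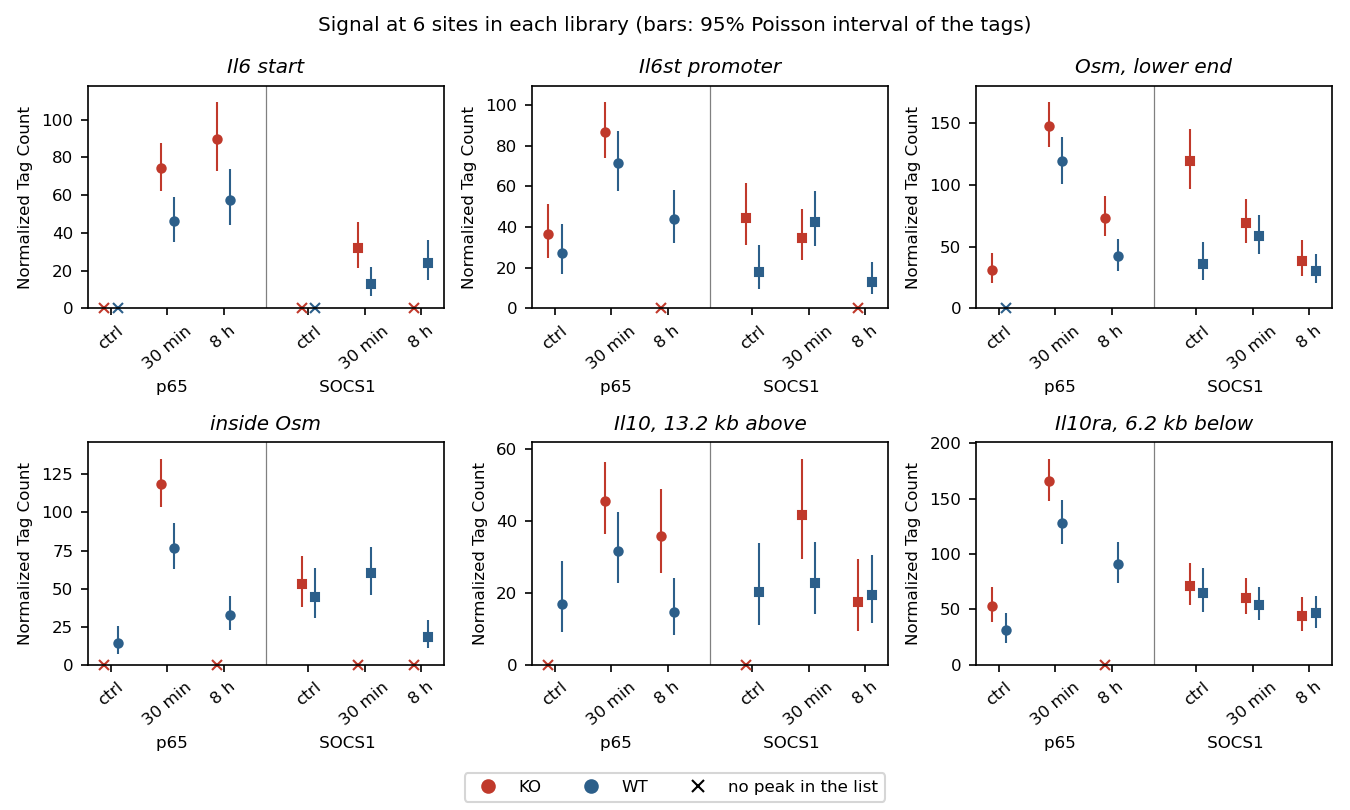
Normalized Tag Count at 6 sites in each library, with the 95% Poisson interval of the tags (KO red and left, WT blue and right; p65 circles, SOCS1 squares); crosses mark libraries with no called peak. The Il6 start has crosses in all 4 control libraries, the Il6st promoter in both KO libraries at 8 h, and p65 is highest at 30 min at the other 5 sites in both genotypes among the libraries with a peak.

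Among sites of the 6 genes called in both lists of a comparison, p65 at 30 min was higher than in control at 3 of 4 in KO cells and 6 of 7 in WT cells. At 30 min the median log2 ratio to control was 1.45 over 4 sites in KO cells, where the median of all sites genome-wide was 0.91. Over 7 sites in WT cells it was 1.39, against 0.88 for all sites. At 8 h it was 1.25 at the 1 shared site in KO cells (all sites 1.04) and 0.66 over 8 sites in WT cells (all sites 0.31). Between the LPS times, the median log2 ratio of 8 h to 30 min was 0.41 over 8 sites in KO cells (all sites 0.29) and -0.37 over 17 sites in WT cells (all sites -0.51). The members had the sign of all sites in each case. The direction between the LPS times depended on the scaling in both genotypes: the KO median was -0.74 per bp of peak width, with peaks of 493 bp at 8 h and 222 bp at 30 min, and the WT median was 0.14 when centred on all sites.

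SOCS1 ratios to control at 30 min were nearer 0 than those of p65. In KO cells the median log2 ratio to control was -0.37 over 5 sites at 30 min (all sites -0.02) and -0.69 over 4 sites at 8 h (all sites -0.45). The WT medians were 0.29 over 6 sites at 30 min (all sites 0.06) and -0.49 over 7 sites at 8 h (all sites -0.43). From 30 min to 8 h it was -0.61 over 6 sites in KO cells (all sites -0.38) and -0.52 over 11 sites in WT cells (all sites -0.48). The KO comparisons with control rest on the library in which the score was the smallest share of the tags. By the score the KO median was 0.34 for 8 h over control and 0.29 for 8 h over 30 min. The direction was opposite in both.

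Between genotypes, p65 signal was higher in KO than in WT cells at 16 of 19 shared sites at 30 min, with a median log2 ratio of 0.32 where that of all sites was 0.01. This median was 0.13 by the score and 0.51 per bp of peak width. The interval of the ratio lay above 1 at 7 of these sites and below 1 at none. Several sites belong to 1 gene and are not independent. Among the 7 is the site 7.5 kb below Il10ra, whose KO and WT peaks do not overlap and whose ratio changed sign by the score. At 8 h all 7 shared sites were higher in KO cells, with a median of 0.95 against 0.72 for all sites, and per bp of peak width the member median was -0.09, with peaks of 493 bp in KO and 239 bp in WT cells. In control cells the 3 shared sites had a median of 0.42 (all sites 0.05), and by the score it was -0.01. For SOCS1 the KO to WT medians were 0.96 over 5 sites in control cells (all sites 0.64), 0.36 over 9 sites at 30 min (all sites 0.58) and 0.36 over 7 sites at 8 h (all sites 0.64). The SOCS1 median became -0.23 at 30 min and -0.28 at 8 h when centred on all sites, -0.45 at 30 min and -0.17 at 8 h per bp of peak width, and 0.05 in control cells by the score.

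The KO list for p65 at 8 h had fewer sites around these genes than the WT list. It held 9 sites, against 27 in WT cells, where the whole lists held 25811 and 31007 peaks. It shared 7 of the 27 WT sites (25.9%, exact binomial interval 11.1% to 46.3%). Over all regions the KO list shared 51.1% of WT sites. Of the 9 KO sites, 77.8% were in the WT list, against 60.3% over all regions. At 30 min the KO list held 19 of the 27 WT sites (70.4%, 49.8% to 86.2%), where the share of all regions was 69.9%. Sites of 1 gene are not independent, and whether the wider peaks of the KO list account for its missing sites was not tested. Around Il10ra the KO list had 3 peaks at 8 h and the WT list 8, and around Il10 it had 1 and the WT list 7.

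**Figure D4:**
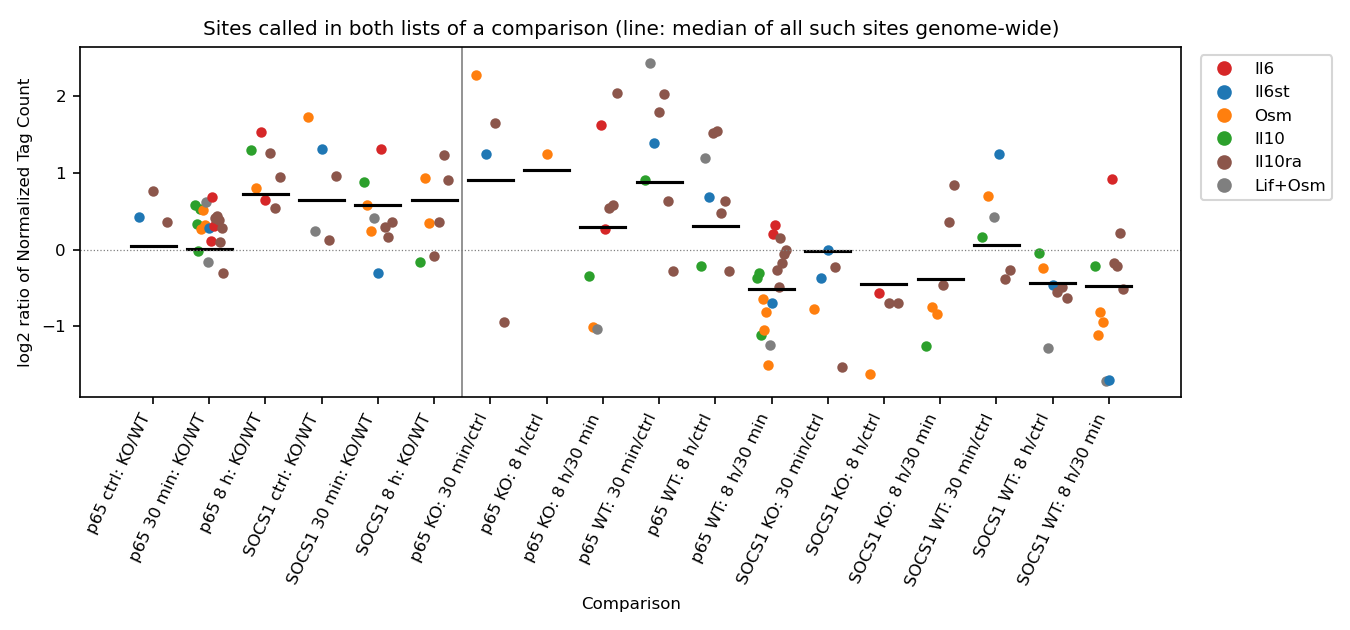
Log2 ratio of Normalized Tag Count at each site called in both lists of a comparison (points, coloured by gene; KO over WT on the left, LPS over control and 8 h over 30 min on the right); black lines are the median of all such sites genome-wide. For p65, KO over WT points at 30 min lie mostly above the line at 0.01, and at 8 h all 7 points are above 0.

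The p65 and SOCS1 peaks were called in some of the same sites. Sharing was counted by joined site, so the peaks themselves need not overlap. At the Il6 start in WT cells at 30 min, for example, they do not. In WT control cells 6 of 8 p65 sites also had a SOCS1 peak (75.0%, 34.9% to 96.8%), where 28.3% of all p65 regions did. In KO control cells it was 4 of 8 (interval 15.7% to 84.3%; all regions 41.3%). At 30 min it was 13 of 33 in KO cells (39.4%, all regions 31.0%) and 12 of 27 in WT cells (44.4%, all regions 32.7%). At 8 h it was 5 of 9 in KO cells (55.6%, all regions 35.8%) and 12 of 27 in WT cells (44.4%, all regions 33.2%). Seen from SOCS1, the share of sites with a p65 peak in KO cells was 4 of 12 in control (33.3%, all regions 18.2%), 13 of 17 at 30 min (76.5%, all regions 66.2%) and 5 of 11 at 8 h (45.5%, all regions 59.3%). In WT cells it was 6 of 7 in control (85.7%, all regions 28.9%), 12 of 16 at 30 min (75.0%, all regions 60.3%) and 12 of 13 at 8 h (92.3%, all regions 74.5%). The KO share at 8 h was the one below that of all regions, and its interval, 16.7% to 76.6%, spans it. Lists of the same genotype and treatment were called against the same IgG library.

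The times at which sites were called were counted next. Of 18 SOCS1 sites in WT cells, 6 were called at all 3 times (33.3%, all regions 6.9%), and 5 at both LPS times but not in control (27.8%, all regions 12.9%). In KO cells SOCS1 was nearer to all regions, with 3 of 28 sites at all 3 times (10.7%, all regions 9.4%). Another 3 of the 28 were called at both LPS times but not in control (10.7%, all regions 7.5%). Of 37 p65 sites in WT cells, 7 were called at all 3 times (18.9%, all regions 7.5%) and 10 at 30 min only (27.0%, all regions 31.4%). In KO cells 22 of 38 p65 sites were called at 30 min only (57.9%, all regions 41.9%) and 1 of 38 at all 3 times (2.6%, all regions 6.9%). These sites include several of the same gene, and the sets were not tested.

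The wider pathway was described with 43 other genes of IL-6 family and IL-10 signalling. In p65 lists of KO cells (control, 30 min and 8 h) 22, 41 and 36 of them had a peak within 20 kb (51.2%, 95.3% and 83.7%, against 42.7%, 70.2% and 62.4% of all genes). The p65 lists of WT cells gave 27, 40 and 34 (62.8%, 93.0% and 79.1%, against 39.7%, 67.3% and 62.0%). In SOCS1 lists of KO cells it was 33, 37 and 31 (76.7%, 86.0% and 72.1%, against 62.5%, 57.5% and 51.1%). SOCS1 lists of WT cells gave 31, 34 and 26 (72.1%, 79.1% and 60.5%, against 38.9%, 54.4% and 45.2%). The pathway share was above that of all genes in all 12 lists. The genes were picked for their function with earlier results of these data known, and the difference was not tested. Peaks in every list were found for 15 of the 43 (34.9%, against 16.4% of all genes), among them Stat3, Tyk2, Socs3 and Il6ra. Osmr, the oncostatin M receptor chain, and Il22 had a peak in none, as did 19.7% of all genes.

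By class, all 6 JAK and STAT transducers (with Ptpn11) had a p65 peak at 30 min in both genotypes, and all 10 feedback and target genes did, where 70.2% of all genes in KO and 67.3% in WT cells had one. Receptors had one in 9 of 10 cases in each genotype at 30 min, and the IL-10 family cytokines Il19, Il20, Il24 and Il22 in 3 of 4 cases in KO and 2 of 4 in WT cells. The highest p65 value of the pathway in WT cells at 30 min was at Il10rb, the second chain of the IL-10 receptor, with 413.1 in KO and 338.2 in WT cells. Zfp36, which encodes an mRNA-destabilising protein, had 270.7 in KO and 326.5 in WT cells. Nfkbiz, which encodes the nuclear protein IκBζ needed for Il6 induction, had 332.8 in KO and 308.1 in WT cells. For SOCS1 at 30 min Il10rb had 141.7 in KO and 203.7 in WT cells, Zfp36 had 271.8 in KO and 140.6 in WT cells, and Ebi3, a subunit of IL-27, had 45.0 in KO and 119.6 in WT cells. These genes were named for having the highest values of the 43, so they do not compare the pathway with the members. The highest p65 value of the 6 members at 30 min was 166.3 in KO and 127.6 in WT cells.

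Pearson's r over the 12 lists was taken on the log2 of the highest Normalized Tag Count within 20 kb plus 1, with 0 for no peak. Where lists lack a peak, r reflects largely which ones do. Genes with the most similar profile were found by this r. For Il6 they were Bnip2, Cfap52 and Itgad (r = 1.0 each, rounded), and Itgad had no peak in the same 3 lists, with p65 values of 81.6 and 101.4 in KO and 79.2 and 75.1 in WT cells at 30 min and 8 h. For Il6st they were Gm33989 (0.99), Zfp788 (0.98) and Mpeg1 (0.97), a macrophage gene whose p65 values were 85.7 in KO and 86.7 in WT cells at 30 min and which, like Il6st, had no peak in KO cells at 8 h. For Lif they were Rab6a (0.97), 3110009E18Rik (0.96) and Dbi (0.96), of which the last have equal values in all lists but 1, and for Osm they were Maml3 (0.97), Sag (0.96) and Apex1 (0.96). For Il10 they were Rhod (0.98), Sin3b (0.97) and Traf3ip3 (0.97), each with a peak in only 6 lists against 12 for Il10. For Il10ra they were Spidr (0.97), Cntnap2 (0.97) and Gm32234 (0.95). Osm, Il10ra and the genes named for them had a peak in all 12 lists, so their r rests on the values alone. The points share libraries and depth, and r is given as a description.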

How the data were processed

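CUT&RUN peak lists of 12 p65 and SOCS1 libraries from mouse bone marrow-derived macrophages were used. The series lists 20 samples: 6 IgG libraries entered only through the authors' calls, and 2 internal control libraries and the E. coli spike-in were not used here. Per the submitters' processing notes, the tools were cutadapt, Bowtie2 2.4.1 and HOMER 4.11, and the build was mm10. Per the file headers, each list was called by findPeaks in factor mode from 1 library against IgG of the same genotype and treatment, with an FDR of 0.001, at least 4-fold over IgG and over the local 10 kb, and at most 1 tag per bp. The deposited signal is the Normalized Tag Count, tags in the peak scaled by the authors to 10000000. The deposited score counts tags under the limit of 1 per bp and is not scaled to depth. The authors' fold ratios over IgG, local background and clonal expectation, and the deposited p-value and focus ratio (a fraction) per peak, were not recomputed. IgG tags in the peak are given per the file headers as an expected count, with 0.5 as the lowest value seen.

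Peaks with centres within 20 kb of a member were joined where they overlapped by at least 1 bp, and the highest value per list was taken. Intervals are exact Poisson or binomial at 95%. Those of signals and of ratios, the latter conditional on the summed tags, cover counting error only. Those of shares of sites take the sites as independent. Genes came from the RefSeq table of GRCm38.p6, which gives no strand, so gene ends are named by coordinate. Sequences were matched on both strands. With 1 library a group there was no test across replicates. The joining of peaks was tested on simulated data. Members, lists of genes and tests were chosen with earlier results of these data known. All 6 members were named. Of the pathway list, counts and the 3 genes with the highest value in WT cells at 30 min were given for each antibody. The most similar genes were the 3 with the highest r for each member with peaks in at least 3 lists. Analyses used Python 3.11.15 with pandas 2.3.3 and scipy 1.17.1. Windows of 10 and 50 kb, a local fold of at least 8, a score of at least 20, centres within 500 bp, width, score and centring were tried as alternatives.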

Additional observations from a re-analysis of the deposited data

Results flagged for a closer look

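Of 20 LPS effects with a value in both genotypes, 4 had opposite signs in KO and WT cells. The share of opposite signs over all regions was not counted, so this number does not set these sites apart. With 1 library a group, the difference between genotypes was not tested for any of the 4, and values are given as the log2 ratio of Normalized Tag Count.

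SOCS1 at the Osm site 0.3 kb below the gene had a 30 min to control ratio of -0.78 in KO cells and 0.70 in WT cells, a difference of -1.48. By the score the KO ratio was 0.58. SOCS1 at the Il6st promoter had a 30 min to control ratio of -0.37 in KO cells and 1.24 in WT cells, a difference of -1.61; the interval of the KO ratio, 0.46 to 1.28, includes 1, and that of the WT ratio was 1.23 to 4.86. By the score the KO ratio was 0.15, of the same sign as in WT cells.

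SOCS1 at the upper end of Il10ra had an 8 h to 30 min ratio of 0.36 in KO cells and -0.52 in WT cells, a difference of 0.88, and both intervals include 1. For p65 at the site 7.5 kb below Il10ra, the 8 h to 30 min ratio was 0.54 in KO cells and -0.27 in WT cells, a difference of 0.81. After centring on the median of all sites the ratios were 0.25 in KO cells and 0.24 in WT cells, and per bp of peak width the KO ratio was -0.61, so the signs no longer differed under either.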

How the results depend on the processing

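No paired analysis was possible because each group had 1 library, and for the same reason no library could be left out within a group. Members with a peak were counted again under other settings, with the share of all genes in brackets. With a local fold of at least 8 they numbered, for p65, 2 in KO control cells (31.3%), 0 in KO cells at 8 h (40.8%) and 3 in WT control cells (25.8%). For SOCS1 they numbered 2 in KO cells at 30 min (49.5%), 3 in KO cells at 8 h (37.9%) and 2 in WT cells at 8 h (35.6%). With a score of at least 20 members with a peak numbered 1 for p65 in KO and 0 in WT control cells. For SOCS1 they numbered 2, 3 and 2 in KO control, 30 min and 8 h cells and 2 and 3 in WT control and 8 h cells. The share of all genes was not counted at this score. With a window of 10 kb members with a peak numbered 3 for both antibodies in WT control cells. There 32.7% of all genes had a p65 peak and 32.4% a SOCS1 peak. Sites numbered 101 with a window of 50 kb and 32 with a local fold of at least 8.

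Of 18 median log2 ratios, 4 changed sign per bp of peak width, 3 by score and 3 centred; values that changed sign or moved beyond the spread of their sites follow. For p65, 8 h over 30 min in KO cells was -0.74 per width, 8 h over control in KO cells was 0.77 per width, 1.73 by score and 0.22 centred, 8 h over 30 min in WT cells was 0.14 centred, and KO over WT was -0.01 by score in control cells and -0.09 per width and 0.23 centred at 8 h. For SOCS1, 8 h over control in KO cells was -0.55 per width, 0.34 by score and -0.25 centred, and 8 h over 30 min in KO cells was 0.29 by score. KO over WT for SOCS1 was 0.05 by score in control cells, -0.45 per width and -0.23 centred at 30 min, and -0.17 per width and -0.28 centred at 8 h.

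Of 119 ratios at the 14 sites called in at least 5 lists, 26 changed sign per width, 28 by score and 21 centred; in 20, 22 and 18 of these the counting interval of the ratio included 1. Those whose interval did not were, for p65 8 h over 30 min, Osm at 0.3 kb in KO cells (0.02 by score), Il10ra at 7.5 kb (-0.61 per width) and 1.2 kb (-0.57 per width) in KO cells and Il10ra at 6.2 kb in WT cells (0.02 centred). For p65 KO over WT they were Il10ra at 6.2 kb in control cells (-0.15 by score) and at 7.5 kb at 30 min (-0.26 by score), and at 8 h Osm at 0.3 kb (-0.24 per width), Il10ra at 5.5 kb above its upper end (-0.09 per width), the Il6 start (-0.41 per width, -0.08 centred) and Il10ra at 1.2 kb (-0.51 per width, -0.18 centred). For SOCS1 in KO cells they were Osm at 0.3 kb (0.58 at 30 min and 0.22 at 8 h over control by score) and Il10ra at 6.2 kb (0.45 at 8 h over control by score). Examples among the others were p65 8 h over 30 min at the Il6 start in KO cells (-0.88 per width, -0.02 centred) and at Il10ra 7.5 kb in WT cells (0.24 centred), and p65 KO over WT at the Il6st promoter at 30 min (-0.22 by score). By score SOCS1 in KO cells was 0.15 at the Il6st promoter (30 min over control) and 0.78 at Il10ra 6.2 kb (8 h over 30 min). Of 134 ratios at single sites, 12 compared peaks that do not overlap. Among sites with a score of at least 20 in both lists, 14 comparisons gave a median of unchanged sign and 4 had no site. The single-site checks were chosen after seeing the data. The cause of these changes was not tested, and depth, repeated tags and peak width limit what ratios of single libraries show.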
